A study of Mus musculus with 12 samples.

Results

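The genes of the mitochondrial respiratory chain and the ATP synthase were taken as all protein-coding mouse genes whose symbol begins with Nduf, Uqcr, Cox4 to Cox8 or Atp5, is Sdha, Sdhb, Sdhc or Sdhd, or names a protein of the mitochondrial genome. They were 106 of the 36439 genes counted, of which 93 are nuclear and 13 are mitochondrially encoded. The study sequenced RNA of F4/80+ macrophages sorted from subcutaneous Lewis lung carcinomas (a transplanted lung tumour) of C57BL/6 mice. It has 4 groups of 3 libraries. MRC1+ TAMs (tumour-associated macrophages carrying the mannose receptor) were set against CD11c+ TAMs (carrying the integrin CD11c). TAMs overexpressing the microRNA miR-511-3p were set against TAMs overexpressing a mutated form, miR-511-3p-mut. The names of the overexpression libraries carry SFFV, the name of a viral promoter that is not macrophage-specific, and these cells were gated on F4/80 without a stated gate on MRC1 or CD11c. The labels number the libraries of a group and do not say whether they came from separate mice, so p-values measure the spread between libraries, which may be technical. The sources used here do not give the age or sex of the mice.

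The respiratory chain passes electrons from NADH (complex I) and succinate (complex II) through complex III and cytochrome c to oxygen at complex IV, and the proton gradient this builds drives the ATP synthase (complex V). Complexes I, III, IV and V are mosaics: their core membrane subunits are read from the circular mitochondrial genome, and the remaining subunits, like all of complex II, are nuclear genes whose proteins are imported. In macrophages, inflammatory activation lowers oxidative phosphorylation and turns complex II towards succinate-driven oxidant production. Alternative activation has been linked to fatty acid oxidation and an intact chain.

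Among the nuclear members, 36 are complex I subunits, 8 are complex I assembly factors (Ndufaf genes), 4 form complex II, 8 belong to complex III, 20 to complex IV (with Ndufa4, now counted as a complex IV subunit, and Ndufa4l2) and 17 to complex V. The mitochondrial genome adds 7 complex I, 1 complex III, 3 complex IV and 2 complex V genes. In each comparison 89 nuclear and 8 mitochondrially encoded members had enough reads to be tested. The members without a test were Cox6a2 (MRC1+ against CD11c+ only), Ndufa4l2 (miR-511-3p against miR-511-3p-mut only), Cox7b2, Cox8b, Cox8c and 5 mitochondrially encoded genes.

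Each library held between 10824918 and 27890433 reads assigned to genes. Nuclear members took 0.580% to 0.617% of them in MRC1+, 0.582% to 0.630% in CD11c+, 0.546% to 0.573% in miR-511-3p and 0.545% to 0.562% in miR-511-3p-mut libraries. All 6 macrophage markers looked at were present in every group, with a summed level of 4091 to 4626 CPM in MRC1+, 3693 to 4683 in CD11c+, 6476 to 7324 in miR-511-3p and 6139 to 6788 in miR-511-3p-mut libraries, and 2 of 6 were called higher in MRC1+ than in CD11c+ TAMs; CPM are read counts relative to library size, scaled by edgeR's TMM factors within each pair of groups. Mrc1 had 3609 to 4099 CPM in MRC1+ and 1447 to 1826 CPM in CD11c+ libraries, and Itgax, the gene of CD11c, had 78.6 to 122.6 CPM in MRC1+ and 942.6 to 1051 CPM in CD11c+ libraries. Markers of dendritic cells were lower in MRC1+ TAMs for 7 of 7 genes, at a summed 25.8 to 27.5 CPM in MRC1+ and 233.7 to 446.3 CPM in CD11c+ libraries. Fibroblast markers summed to 616.3 to 866.9 CPM in MRC1+ and 269.7 to 1189 CPM in CD11c+ libraries, with 0 of 7 called. Endothelial markers summed to 30.5 to 39.8 CPM in MRC1+ and 81.0 to 124 CPM in CD11c+ libraries (1 of 3 higher, 2 lower), epithelial or carcinoma markers to 64.1 to 94.9 and 87.4 to 104 CPM (3 of 5 higher, 2 lower), and T and NK cell markers to 66.3 to 133 and 25.8 to 107 CPM (2 of 5 lower). Cd4 made up most of the T and NK cell sum, with 62.7 to 127 CPM in MRC1+ and 16.6 to 96.0 CPM in CD11c+ libraries. No other marker of that list passed 5.96 CPM in these libraries. Gzma and Klrb1c were lower in every MRC1+ than in every CD11c+ library, and the other markers of that list overlapped. Neutrophil markers summed to 55.0 to 73.1 CPM in MRC1+ and 50.4 to 112 CPM in CD11c+ libraries (1 of 3 lower). No marker was called between miR-511-3p and miR-511-3p-mut TAMs, where 0 of 14054 tested genes were called. That does not show equal cell content. Fibroblast markers summed to 83.0 to 254 CPM in miR-511-3p and 158 to 636 CPM in miR-511-3p-mut libraries. In the same order, neutrophil markers summed to 66.4 to 82.2 and 62.7 to 132 CPM, and endothelial markers to 43.1 to 71.1 and 31.7 to 86.5 CPM. B cell markers summed to 0.489 to 0.565 and 0.593 to 4.57 CPM. The part of these other cells in the results below was not tested, and in bulk libraries fewer cells of a type and less RNA per cell cannot be told apart.

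Of the 13 mitochondrially encoded genes, mt-Nd3, mt-Nd4l, mt-Co3, mt-Atp6 and mt-Atp8 had no read in any of the 12 libraries. A count of 0 allows up to 3 reads, or 0.108 to 0.277 CPM depending on the library, and this limit covers counting error only. These are core subunits of complexes I, IV and V that respiring cells need, and a 0 is not read as absence here. For mt-Co3, mt-Atp6, mt-Nd4l and mt-Nd3, 99.9%, 99.5%, 98.9% and 98.1% of the gene's 31-base words were also found in a pseudogene on chromosome 1 (Gm28437, Gm10925, Gm10222 and Gm28438), a copy of mitochondrial DNA inserted in the nuclear genome. Reads with more than a single alignment, which the deposited counts leave out of every gene, made up 16.3% to 20.1% in MRC1+, 15.5% to 18.7% in CD11c+, 13.1% to 13.3% in miR-511-3p and 12.8% to 13.2% in miR-511-3p-mut libraries. mt-Atp8 shared 7.47% of its words with another locus, and overlaps mt-Atp6 on the same strand. The part of shared and overlapping sequence in each zero was not tested.

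The sequences below set a gene without reads, a gene with reads and a nuclear member beside their closest copies, base by base. The first pair is the mitochondrial gene mt-Nd4l, a membrane subunit of complex I, and its chromosome 1 copy Gm10222, from base 1 to base 294 of each transcript, without a difference. The second is bases 201 to 350 of mt-Nd6, another complex I membrane subunit, and of Gm11408, its closest copy, on chromosome 4, where 17 differing bases are in capitals. The third is the first 180 coding bases of the nuclear gene Atp5g2, which encodes the proton-carrying c subunit of the ATP synthase, and its processed pseudogene Gm10175 on chromosome 7, again without a difference. All are in the sense of the transcript, 5′ to 3′, from GENCODE M21.
mt-Nd4l: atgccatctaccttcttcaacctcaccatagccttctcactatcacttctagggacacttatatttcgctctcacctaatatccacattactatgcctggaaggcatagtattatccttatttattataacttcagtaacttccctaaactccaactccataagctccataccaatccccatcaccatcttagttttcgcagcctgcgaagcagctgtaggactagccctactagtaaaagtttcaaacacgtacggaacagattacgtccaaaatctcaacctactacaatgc
Gm10222: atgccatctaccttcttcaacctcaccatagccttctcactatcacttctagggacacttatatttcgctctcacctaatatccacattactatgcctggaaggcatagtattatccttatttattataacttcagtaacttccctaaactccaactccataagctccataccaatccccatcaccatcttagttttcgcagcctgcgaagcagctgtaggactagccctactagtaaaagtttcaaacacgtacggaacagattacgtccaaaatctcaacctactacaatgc
mt-Nd6: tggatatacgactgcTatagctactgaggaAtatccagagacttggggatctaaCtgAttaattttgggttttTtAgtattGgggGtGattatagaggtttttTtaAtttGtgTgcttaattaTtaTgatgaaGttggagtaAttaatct
Gm11408: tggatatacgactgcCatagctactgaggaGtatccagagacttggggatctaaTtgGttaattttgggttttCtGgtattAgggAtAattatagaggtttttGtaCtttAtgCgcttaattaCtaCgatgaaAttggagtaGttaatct
Atp5g2: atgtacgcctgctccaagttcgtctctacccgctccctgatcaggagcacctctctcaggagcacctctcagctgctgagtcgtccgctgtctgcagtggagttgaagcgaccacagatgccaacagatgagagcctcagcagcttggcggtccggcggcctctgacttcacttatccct
Gm10175: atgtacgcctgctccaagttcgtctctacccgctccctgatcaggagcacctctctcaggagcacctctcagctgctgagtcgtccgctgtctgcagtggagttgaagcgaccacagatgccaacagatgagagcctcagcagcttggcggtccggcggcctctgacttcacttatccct

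The remaining 8 mitochondrially encoded genes differed widely in level. Of the 31-base words of mt-Co1 and mt-Nd4, 63.9% and 62.8% were shared with other genes, so their levels are uncertain. Per kilobase of transcript, mt-Co1, the catalytic subunit of complex IV, was highest in every group, with 1520 ± 147, 1524 ± 86.7, 2489 ± 161 and 2535 ± 196 CPM per kb in MRC1+, CD11c+, miR-511-3p and miR-511-3p-mut TAMs (SD, n = 3 each). mt-Nd1, which lines the quinone tunnel of complex I and had no shared 31-base word, stood at 257 ± 67.8 in MRC1+, 217 ± 25.2 in CD11c+, 1216 ± 87.0 in miR-511-3p and 1243 ± 64.0 CPM per kb in miR-511-3p-mut TAMs. mt-Co2, the complex IV subunit that takes electrons from cytochrome c and whose words were all shared, stood at 57.8 ± 5.23 in MRC1+, 53.3 ± 3.55 in CD11c+, 3.804 ± 0.783 in miR-511-3p and 4.55 ± 0.937 CPM per kb in miR-511-3p-mut TAMs. mt-Nd2 had 29.1 to 66.9 CPM over the 6 sorted and 735.3 to 894.0 CPM over the 6 overexpression libraries, and mt-Nd4, mt-Nd5, mt-Nd6 and mt-Cytb also had separate ranges in the sorted and the overexpression libraries. Between these pairs the sort, the vector and the preparation cannot be told apart, and the pairs were scaled separately, so no test was made.

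**Figure D1:**
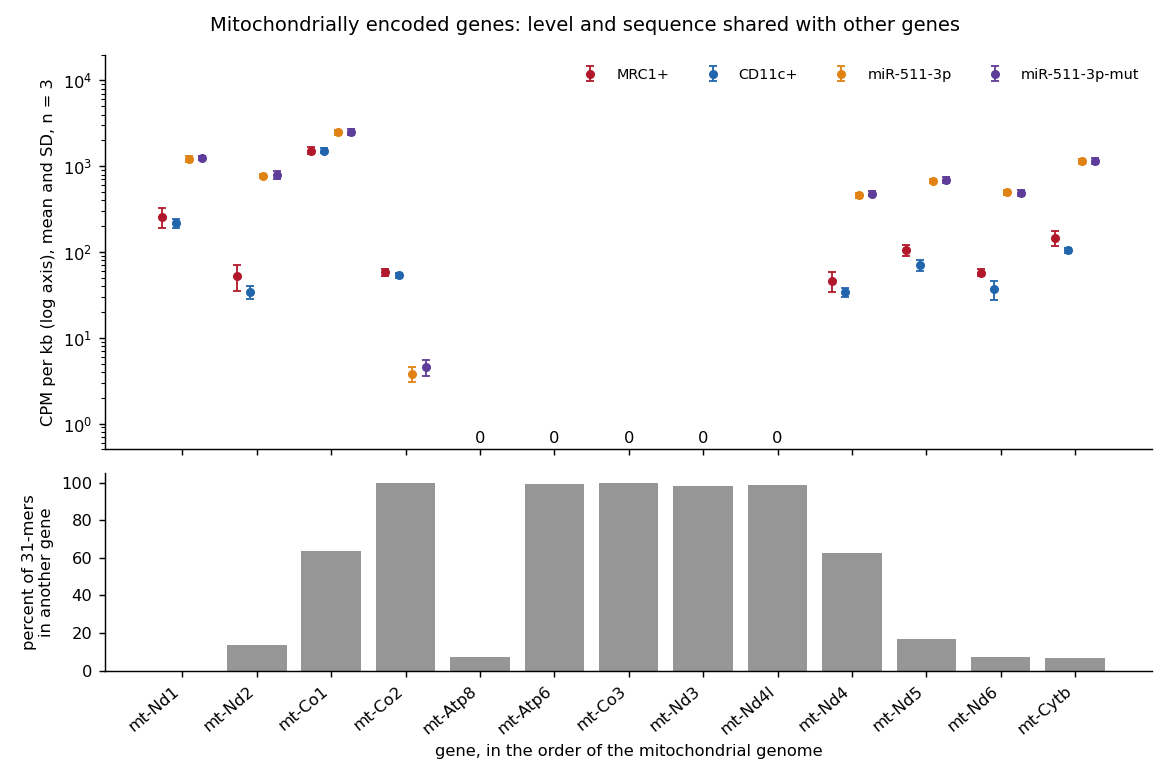
Top, mean level (CPM per kb of transcript, log axis) and SD of the 13 mitochondrially encoded genes in the 4 groups, 3 libraries each; a 0 marks genes without reads. Bottom, percent of each gene's 31-base words found in another gene. The 5 genes at 0 include 4 whose words are over 98% shared, mt-Co2, fully shared, has group means from 3.804 to 57.8, and mt-Nd1 has no shared word.

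The mitochondrial ribosomal RNAs, read from the same heavy-strand transcript as most of these genes, had their own pattern. Reads of mt-Rnr1 and mt-Rnr2 together were 12.1 to 16.5 times those of all mitochondrially encoded members in MRC1+, 12.8 to 16.4 times in CD11c+, 0.0742 to 0.0814 times in miR-511-3p and 0.0770 to 0.0908 times in miR-511-3p-mut libraries. mt-Co1 alone was 72.0% to 78.5% of mitochondrially encoded member reads in MRC1+, 77.6% to 82.4% in CD11c+, 41.2% to 42.3% in miR-511-3p and 40.7% to 42.2% in miR-511-3p-mut libraries. Both ratios overlapped between the groups of each pair. Among the nuclear copies, Gm13341 had 441 to 995 reads in the sorted and 90 to 125 reads in the overexpression libraries, and Gm10222 had 0 to 5 and 42 to 72 reads.

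Setting MRC1+ against CD11c+ TAMs asks whether macrophages of these surface phenotypes differ in the transcripts of their respiratory chain. The fold changes of nuclear and of mitochondrially encoded members lay mostly on opposite sides of 0. Of 89 nuclear members tested, 2 fell in MRC1+ TAMs (Ndufa6 and Sdhb) and 0 rose, and of 8 mitochondrially encoded members 2 rose (mt-Nd5 and mt-Nd6) and 0 fell. Over all 15622 tested genes, 6.91% were called higher and 9.71% lower in MRC1+ TAMs, so calls among nuclear members (2.25% lower) were fewer than the background. Most were small: 74 of 89 nuclear members (83.1%) lay below 0, with a median log2 fold change of -0.15 (range -0.56 to 0.47), and 7 of 8 mitochondrially encoded members lay above 0, with a median of 0.46 (range -0.00326 to 0.63). The median over all tested genes was 0.01, and 51.5% lay above 0. In 25 nuclear members (28.1%) every MRC1+ library was below every CD11c+ library, against 19.6% of all tested genes, and in 4 (4.49%) every MRC1+ library was above, against 18.7%. At an unadjusted p under 0.05, 15 nuclear members were lower and 1 higher, where 17.1% of all tested genes were lower and 16.2% higher (33.3% in either direction); 5 mitochondrially encoded members were higher and 0 lower.

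These counts depended on single libraries and on the scaling. Nuclear members called lower were 0, 0, 8, 1 and 1 without MRC1+ library 2, MRC1+ library 3, CD11c+ library 1, CD11c+ library 2 and CD11c+ library 3. CD11c+ library 1 had the highest summed level of fibroblast markers among the sorted libraries, 1189 CPM. Its Col3a1 had 770 CPM, against 165 and 221 CPM in CD11c+ libraries 2 and 3. The part of fibroblasts in that count was not tested. Mitochondrially encoded members called higher were 5 without MRC1+ library 1, 0 without MRC1+ library 2 or 3, and 0 without CD11c+ library 2 or 3. With library sizes alone for scaling, the median of all genes moved to 0.14 and that of nuclear members to -0.0200, with 52 of 89 below 0. Below 0 were then 21 of 36 complex I subunits, 1 of 8 assembly factors, 1 of 4 complex II, 4 of 8 complex III, 14 of 16 complex IV and 11 of 17 complex V genes. Without CD11c+ library 3 the nuclear median was -0.057, with 64 of 89 below 0. All counts by complex given next are with TMM scaling.

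**Figure D2:**
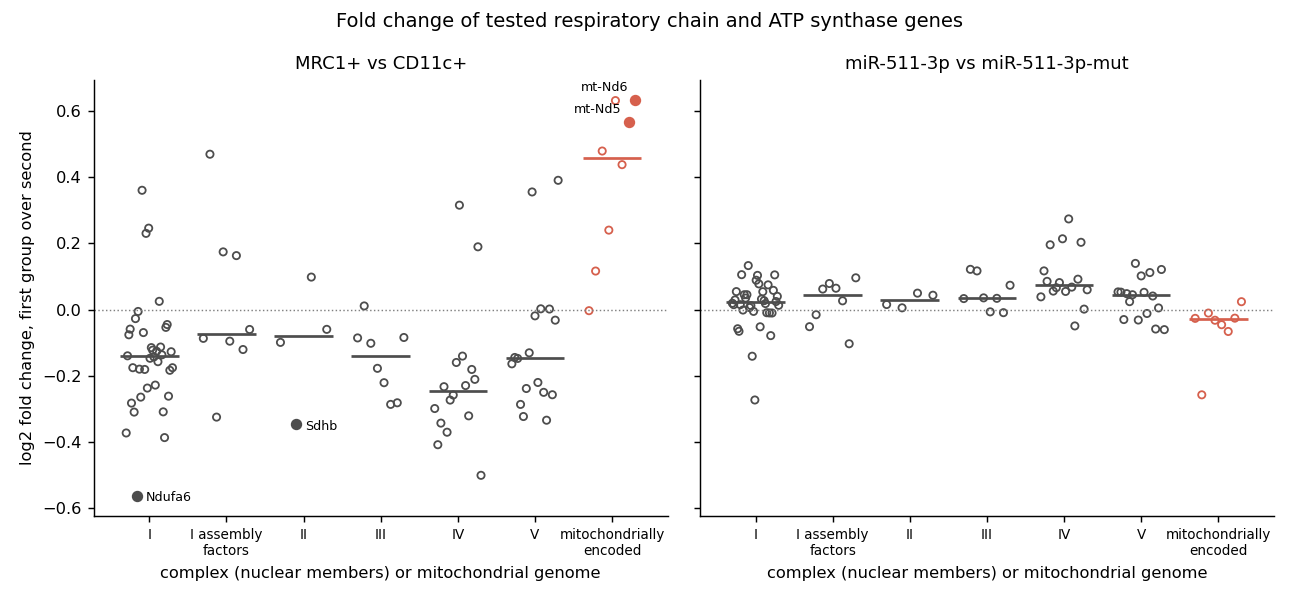
Log2 fold change (vertical axis) of each tested member, by complex for nuclear members and together for mitochondrially encoded members; left, MRC1+ over CD11c+ TAMs, right, miR-511-3p over miR-511-3p-mut TAMs. Filled points passed an adjusted p of 0.05, open points did not, and bars are medians. On the left, with TMM scaling, the nuclear medians lie below 0 and the mitochondrial median at 0.46, and on the right no point is filled.

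mt-Nd5 and mt-Nd6 encode complex I membrane subunits, the first on the heavy-strand message and the second, alone among the proteins of this genome, on the other strand. mt-Nd5 had 159.5, 207.0 and 206.1 CPM in MRC1+ libraries, against 140.3, 137.7 and 108.2 CPM in CD11c+ libraries. The groups did not overlap, and the log2 fold change was 0.57 ± 0.14 (SE; edgeR quasi-likelihood test, Benjamini-Hochberg adjusted p = 0.0292). mt-Nd6 had 26.5, 32.0 and 31.02 CPM in MRC1+ libraries, against 23.7, 19.2 and 14.3 CPM in CD11c+ libraries. These groups did not overlap either, and the log2 fold change was 0.63 ± 0.17 (edgeR adjusted p = 0.0423, and 0.0523 with the library number blocked, which left mt-Nd5 the 1 mitochondrially encoded member called). The sources used here do not say whether counting used strand, so reads of the opposite strand cannot be told apart from mt-Nd6. Both calls rest on single libraries, and the edgeR adjusted p for mt-Nd5 was 0.123, 0.118, 0.0644 and 0.0640 without MRC1+ library 2, MRC1+ library 3, CD11c+ library 2 and CD11c+ library 3. For mt-Nd6 the edgeR adjusted p was 0.0670, 0.156, 0.141, 0.112 and 0.0711 without MRC1+ libraries 1, 2 and 3 and CD11c+ libraries 2 and 3 in turn.

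mt-Cytb, the core of complex III, had 127.8, 181.6 and 191.7 CPM in MRC1+ libraries, against 122.0, 125.6 and 111.9 CPM in CD11c+ libraries. The groups did not overlap, but the log2 fold change of 0.48 ± 0.15 missed the threshold (edgeR adjusted p = 0.0633). mt-Nd2 and mt-Nd4, both complex I proton-pump subunits, had log2 fold changes of 0.63 ± 0.25 and 0.44 ± 0.19 (edgeR adjusted p = 0.116 and 0.148), and in each MRC1+ library 1 lay within the CD11c+ range. Without that library 5 mitochondrially encoded genes were called (mt-Nd1, mt-Nd2, mt-Nd4, mt-Nd5 and mt-Cytb). mt-Co1 differed by -0.00326 ± 0.11 and mt-Co2 by 0.12 ± 0.10 on the log2 scale (edgeR adjusted p = 0.989 and 0.460), so the 2 complex IV genes with reads stayed within their spread.

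Ndufa6, an accessory subunit of the matrix arm of complex I that binds the acyl carrier protein, was the nuclear member with the lowest p. It had 49.7, 41.9 and 45.1 CPM in MRC1+ libraries, against 59.5, 64.0 and 78.6 CPM in CD11c+ libraries. The groups did not overlap, and the log2 fold change was -0.56 ± 0.12 (edgeR adjusted p = 0.0182; 0.0738 and 0.0676 without MRC1+ library 2 or 3). Of the 36 complex I subunits 32 lay below 0, with a median of -0.14. Ndufs4, which is needed to attach the NADH-oxidising module, was at -0.31 ± 0.10, Ndufa9, which stabilises the joint with the membrane arm, at -0.26 ± 0.09, and Ndufa1, a membrane-arm subunit, at -0.37 ± 0.14, none past the threshold (edgeR adjusted p = 0.0738, 0.0701 and 0.106). Ndufab1, the mitochondrial acyl carrier protein that Ndufa6 binds, had 7.96, 9.75 and 9.20 CPM in MRC1+ and 6.39, 8.22 and 6.28 CPM in CD11c+ libraries, with overlap (log2 fold change 0.36 ± 0.17, edgeR adjusted p = 0.169). The assembly factor Ndufaf2 had 8.27, 6.70 and 7.25 CPM in MRC1+ and 5.45, 4.71 and 5.97 CPM in CD11c+ libraries, without overlap, at 0.47 ± 0.17 (edgeR adjusted p = 0.0893). Of the 8 assembly factors 3 lay above 0.

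Complex II, succinate dehydrogenase, is the only complex without a mitochondrially encoded part. Sdhb, its iron-sulphur subunit, had 102.7, 91.2 and 96.4 CPM in MRC1+ libraries, against 115.9, 119.4 and 134.0 CPM in CD11c+ libraries. It fell by 0.35 on the log2 scale (SE 0.09, edgeR adjusted p = 0.0370) with no overlap. Without MRC1+ libraries 1, 2 or 3 or CD11c+ libraries 2 or 3 the edgeR adjusted p was 0.0561, 0.142, 0.116, 0.0845 and 0.107. The flavoprotein gene Sdha had 226.2 to 235.5 CPM in MRC1+ and 241.3 to 254.1 CPM in CD11c+ libraries (log2 fold change -0.10 ± 0.08, edgeR adjusted p = 0.412). The membrane anchors Sdhc and Sdhd were at 0.10 ± 0.08 and -0.06 ± 0.08 (edgeR adjusted p = 0.458 and 0.635), so the 4 genes of the complex did not share a sign.

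**Figure D3:**
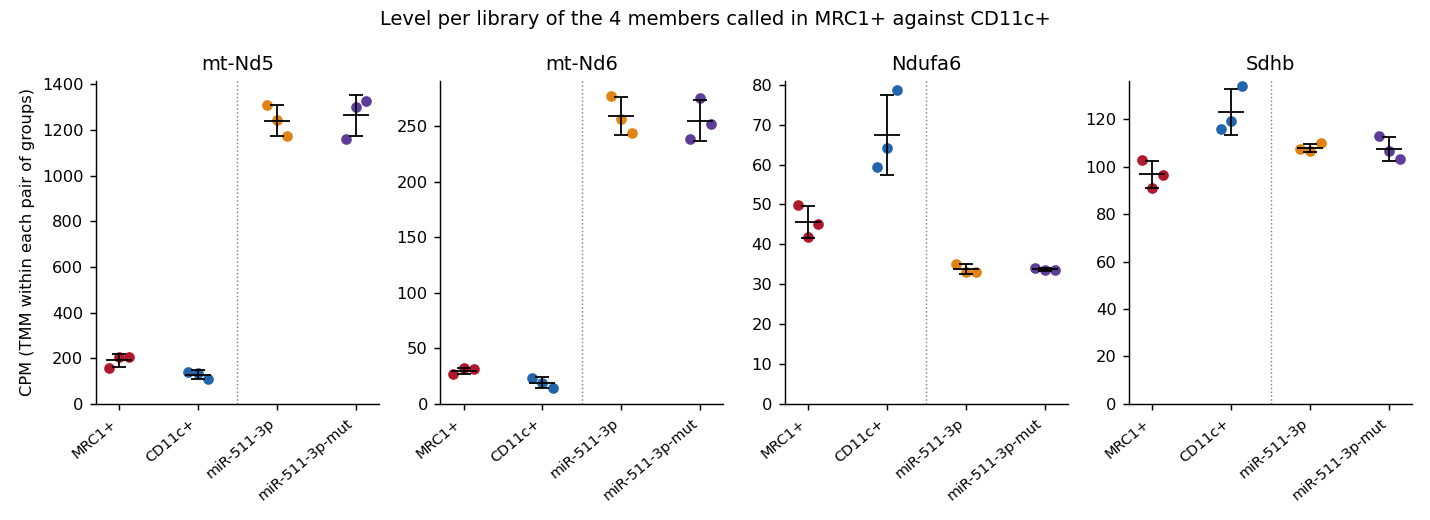
CPM (vertical axis, from 0) of mt-Nd5, mt-Nd6, Ndufa6 and Sdhb in each library of the 4 groups; bars are the mean and SD of 3 libraries. MRC1+ libraries lie above CD11c+ libraries for mt-Nd5 and mt-Nd6 and below them for Ndufa6 and Sdhb, and the miR-511-3p and miR-511-3p-mut libraries overlap for all 4.

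In complex III, 7 of 8 nuclear genes lay below 0 (median -0.14). Uqcrfs1, the Rieske iron-sulphur protein, had 92.5, 91.0 and 94.6 CPM in MRC1+ and 109.4, 105.3 and 124.6 CPM in CD11c+ libraries, without overlap (log2 fold change -0.29 ± 0.09, edgeR adjusted p = 0.0630). Uqcrh, the hinge protein beside cytochrome c1 and the nuclear complex III gene with the highest level per kb, was at -0.28 ± 0.13 (edgeR adjusted p = 0.163). In complex IV, 14 of 16 tested nuclear genes lay below 0, and the median of -0.25 was the lowest of the complexes. Cox6a1, a regulatory subunit, had 57.4, 54.3 and 63.4 CPM in MRC1+ and 68.8, 72.1 and 85.6 CPM in CD11c+ libraries, without overlap. Its log2 fold change was -0.37 ± 0.11 (edgeR adjusted p = 0.0529, and 0.0277 with the library number blocked, which raised the count of nuclear members called lower to 3). Ndufa4 had 56.2, 49.0 and 50.2 CPM in MRC1+ and 44.0, 43.7 and 48.7 CPM in CD11c+ libraries, and was above 0 at 0.19 ± 0.09 (edgeR adjusted p = 0.194). In complex V, 13 of 17 lay below 0 (median -0.15). Atp5b, the catalytic beta subunit and the most abundant nuclear member, had 825.9, 739.8 and 809.6 CPM in MRC1+ and 883.4, 790.5 and 951.7 CPM in CD11c+ libraries, with overlap (-0.14 ± 0.10, edgeR adjusted p = 0.373).

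Library by library, the shift of nuclear members was not even. The median deviation of nuclear members from their mean over the 6 libraries, in log2(CPM + 1), was 0.014, -0.14 and -0.085 in MRC1+ and 0.015, -4.4e-04 and 0.24 in CD11c+ libraries. For mitochondrially encoded members it was -0.12, 0.39 and 0.39 in MRC1+ and -0.14, -0.081 and -0.37 in CD11c+ libraries. MRC1+ library 1 lay within the range of the CD11c+ libraries in both sets, and for nuclear members CD11c+ library 3 was the highest of the 6. CD11c+ library 3 had 10824918 reads assigned to genes, against 17023141 and 17318957 in CD11c+ libraries 1 and 2. It also had the highest summed level of dendritic cell markers, 446.3 CPM. The part of depth and of dendritic cells in its deviation was not tested. Other coding genes with transcripts of up to 600 bases, a length at which 25 of the tested nuclear members fall, deviated by 0.077, -0.12 and -0.063 in MRC1+ and 0.021, -0.086 and 0.15 in CD11c+ libraries. In the comparison their median log2 fold change was -0.04 (165 genes), against -0.18 for the nuclear members of that length. Between 600 and 1000 bases the medians were -0.15 for 30 nuclear members and -0.06 for 620 other genes, and between 1000 and 2000 bases -0.15 for 28 nuclear members and -0.01 for 2856 other genes. Over 2000 bases they were -0.037 for 6 nuclear members and 0.043 for 8922 other genes. The part of transcript length in the shift was not tested beyond these values.

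Lists of genes around the respiratory chain differed in how many members were called in MRC1+ against CD11c+ TAMs, where 16.6% of all tested genes were called in either direction. Of 18 genes of the tricarboxylic acid cycle and its entry, 1 rose and 2 fell, a share close to that background. Idh2, the mitochondrial NADP-dependent isocitrate dehydrogenase, rose to 109 ± 8.41 CPM in MRC1+, against 74.6 ± 8.25 CPM in CD11c+ TAMs (SD, n = 3 each; edgeR adjusted p = 0.0121). Cs, citrate synthase, fell to 164 ± 4.50 CPM in MRC1+, against 212 ± 5.70 CPM in CD11c+ TAMs (edgeR adjusted p = 0.0149), and Idh3g, a subunit of the NAD-dependent enzyme, fell by 0.28 on the log2 scale (edgeR adjusted p = 0.0452). Of 18 electron carrier and coenzyme Q genes 1 fell: Gpd2, the glycerophosphate dehydrogenase that feeds electrons to coenzyme Q, by 0.62 on the log2 scale (edgeR adjusted p = 0.00113). Of 36 tested assembly factors outside the symbol rule 1 fell, Sdhaf2, which helps attach the flavin to Sdha (log2 fold change -0.33, edgeR adjusted p = 0.0446). The copper chaperone Cox17 missed the threshold at -0.41 (edgeR adjusted p = 0.0505).

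Among 13 tested regulators of mitochondrial biogenesis and metabolism 4 were called, beside 16.6% of all tested genes. The list is short and was chosen with earlier results known, so its share is no test of the list. Myc rose by 0.87 on the log2 scale and Pparg, Nfe2l2 and Hif1a fell by 0.96, 0.62 and 0.33 (edgeR adjusted p = 0.0193, 0.00401, 0.0162 and 0.0444). Ucp2, an inner-membrane carrier, fell to 179 CPM on average in MRC1+, against 314 CPM in CD11c+ TAMs (log2 fold change -0.81, edgeR adjusted p = 0.00519), the only call among 8 tested carrier and uncoupling genes. None of 30 genes of mitochondrial transcription, translation and DNA maintenance and none of 76 mitochondrial ribosomal protein genes was called by edgeR, against 16.6% of all tested genes, with medians of 0.02 and -0.04; the lowest adjusted p values were 0.109 (Twnk, the mitochondrial helicase) and 0.0617 (Mrpl32). Of 83 tested cytosolic ribosomal protein genes, other short and abundant transcripts, 1 fell (Rps27rt, edgeR adjusted p = 0.0395) and the median was -0.16, close to that of the nuclear members. None of 12 immediate early genes, which respond to cell handling, was called (median -0.18; Jun was lowest in p at 0.53, edgeR adjusted p = 0.0799).

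Several subunits come in alternative forms, and in all 4 groups the form of most tissues was far above the muscle, testis or hypoxia form. Per kilobase, Cox4i1 had 249 ± 15.2 in MRC1+, 306.9 ± 46.2 in CD11c+, 240 ± 5.05 in miR-511-3p and 234 ± 11.4 CPM per kb in miR-511-3p-mut TAMs, while Cox4i2, the lung and hypoxia form, had group means of 1.16 to 1.88 CPM per kb. Cox6a1 had group means of 102 to 175 and the muscle form Cox6a2 of 0.361 to 1.10 CPM per kb. Cox6b1 had 167 to 208 and the testis form Cox6b2 1.14 to 1.51 CPM per kb. Cox7a2 had 86.3 to 138 CPM per kb and its paralogue Cox7a2l had 85.8 to 140 CPM per kb. The muscle form Cox7a1 had 5.19 to 10.2 CPM per kb. Cox8a had 103 to 141 CPM per kb, while Cox8b and Cox8c stayed at or under 0.423 CPM per kb. Cox7b had 43.4 to 78.5 CPM per kb, and Cox7b2 had a read in a single library. Ndufa4 had 74.5 to 87.3 and its hypoxia-induced relative Ndufa4l2 0.086 to 1.08 CPM per kb. Skeletal muscle markers summed to 2.19 to 20.3 CPM in MRC1+ and 2.47 to 9.83 CPM in CD11c+ libraries. They summed to 1.39 to 1.91 CPM in miR-511-3p and 0.888 to 1.27 CPM in miR-511-3p-mut libraries. The part of muscle RNA in the levels of the muscle forms was not tested.

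**Figure D4:**
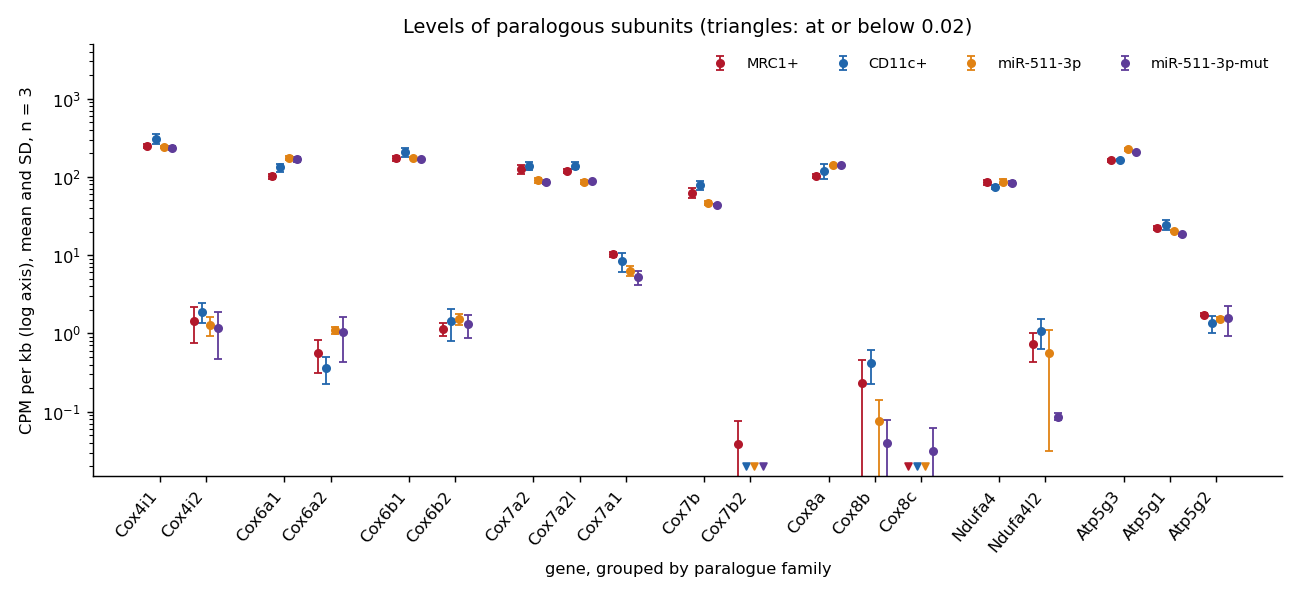
Mean level (CPM per kb, log axis) and SD over 3 libraries of paralogous subunits in the 4 groups, by family; triangles mark means at or below 0.02. Cox4i2, Cox6a2, Cox6b2, Cox7a1, Cox7b2, Cox8b, Cox8c and Ndufa4l2, at 10.2 CPM per kb or less, lie below the other members of their families in all 4 groups.

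Ndufa4l2 was uneven in the miR-511-3p group, with 1.09, 0.339 and 0.150 CPM in miR-511-3p libraries, against 0.0711, 0.0847 and 0.0854 CPM in miR-511-3p-mut libraries. These values come from 25, 9 and 4 reads in miR-511-3p and 2, 2 and 2 reads in miR-511-3p-mut libraries, without overlap, and the gene did not pass the filter for testing. The 3 genes of the c subunit ring of the ATP synthase encode the same mature protein. Atp5g3 had group means of 162 to 225 CPM per kb, Atp5g1 of 18.4 to 24.3 and Atp5g2 of 1.34 to 1.72. Of the 31-base words of Atp5g1 and Atp5g2, 67.3% and 87.7% were shared with other loci, including the pseudogene printed above, and the order of the 3 levels is uncertain for that reason. The 8 nuclear members with over 40% shared words had a median of 19.4 CPM per kb in sorted libraries, against 44.0 CPM per kb for the 43 with at most 1% shared, all at a level of at least 0.5 CPM. The medians between were 63.2 CPM per kb for 18 members with 1% to 10% shared and 38.4 CPM per kb for 21 with 10% to 40%, so the level did not fall steadily with sharing.

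Setting miR-511-3p against miR-511-3p-mut TAMs asks what the microRNA's own sequence does beyond the vector. No member was called, in a comparison where 0 of 14054 tested genes were called by edgeR (0%), 343 (2.44%) had an unadjusted p under 0.05 (0.583% higher and 1.86% lower), DESeq2 called 1 gene and edgeR with the replicate block called 1. No member had an unadjusted p under 0.05. Of 89 nuclear members 67 lay above 0 (75.3%, against 51.3% of all tested genes), with a median log2 fold change of 0.040 (range -0.27 to 0.27), and 7 of 8 mitochondrially encoded members lay below 0, with a median of -0.029. The nuclear median was 0.011 without miR-511-3p library 1 and 0.015 without miR-511-3p-mut library 3. The mitochondrial median turned positive, at 0.010 without miR-511-3p library 3 and 0.013 without miR-511-3p-mut library 3. miR-511-3p-mut library 3 had 467 CPM of the fibroblast marker Col3a1, against 119 and 114 CPM in miR-511-3p-mut libraries 1 and 2. Its neutrophil marker S100a9 had 35.0 CPM, against 4.55 and 1.65 CPM. The part of other cells in the effect of that library on the medians was not tested.

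In 9 of the 89 tested nuclear members every miR-511-3p library was above every miR-511-3p-mut library (10.1%, against 2.79% of all tested genes), and in 0 every library was below (against 3.59%). The lowest p was that of Atp5j2, a membrane subunit of the ATP synthase, with 39.8, 41.1 and 39.7 CPM in miR-511-3p and 36.0, 37.9 and 37.7 CPM in miR-511-3p-mut libraries. The values did not overlap and differed by 0.11 ± 0.06 on the log2 scale (edgeR unadjusted p = 0.0886, adjusted p = 0.99988). Atp5g3 had 170.5, 156.3 and 155.1 CPM in miR-511-3p and 152.2, 152.2 and 144.7 CPM in miR-511-3p-mut libraries (0.10 ± 0.06), and Atp5o, of the stalk that holds the catalytic head, was at 0.12 ± 0.07. Below 0, Ndufaf7, Ndufa13 and Ndufa2 had the lowest p, at -0.10 ± 0.10, -0.06 ± 0.06 and -0.07 ± 0.07. The members called in the sorted comparison were flat here: mt-Nd5 at -0.03 ± 0.08, mt-Nd6 at 0.02 ± 0.08, Ndufa6 at -0.00135 ± 0.06 and Sdhb at 0.00535 ± 0.06. None of the lists of surrounding genes had a call in this comparison, and the lowest unadjusted p among them was 0.0476 (Mrpl46).

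A ratio within a library does not depend on scaling between libraries. Reads of mitochondrially encoded members over reads of nuclear members gave 0.464, 0.578 and 0.620 in MRC1+ libraries, against 0.471, 0.483 and 0.433 in CD11c+ libraries. Between same-numbered libraries the ratio was higher in MRC1+ in 2 of 3. The groups overlapped through MRC1+ library 1, and the mean log2 ratios were -0.86 ± 0.22 and -1.11 ± 0.08 (SD, n = 3 each), a difference of 0.25. Without mt-Co1 and Atp5b, the most abundant member of each genome, the ratios were 0.116, 0.188 and 0.185 in MRC1+ and 0.113, 0.125 and 0.0884 in CD11c+ libraries. They still overlapped but were higher in MRC1+ in 3 of 3 same-numbered libraries, and the log2 difference was 0.56. The libraries numbered 1 were close, at 0.116 and 0.113. The labels do not give the pairing by number, and it is uncertain for the libraries numbered 1. The overexpression libraries stood at 1.66, 1.69 and 1.56 for miR-511-3p and 1.56, 1.70 and 1.89 for miR-511-3p-mut, with overlap and a difference of -0.06 in the mean log2 ratio.

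**Figure D5:**
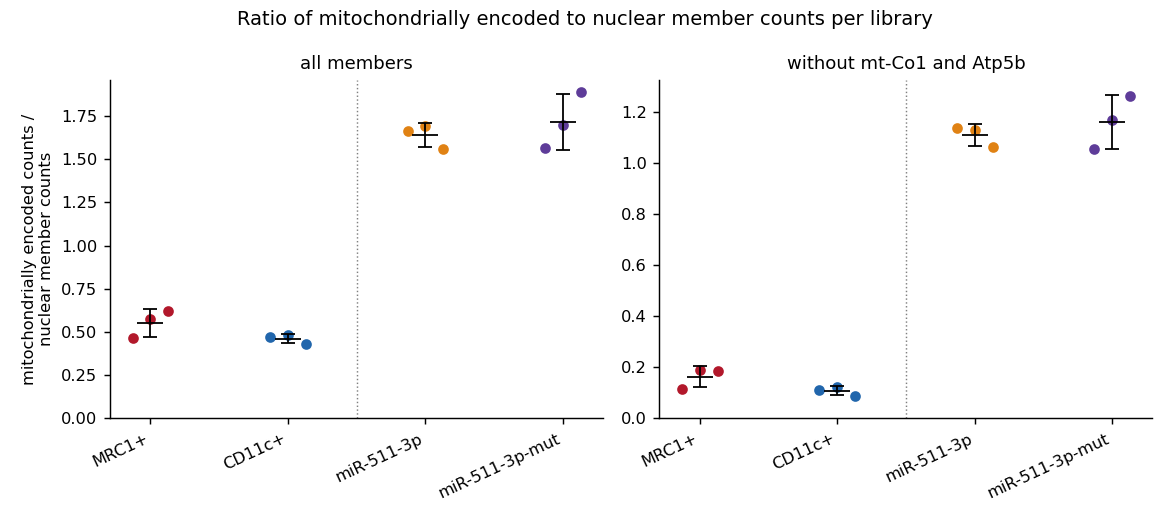
Ratio of reads of mitochondrially encoded members to reads of nuclear members (vertical axis, from 0) in each library; left, all members, right, without mt-Co1 and Atp5b. Bars are the mean and SD of 3 libraries. MRC1+ and CD11c+ libraries overlap through MRC1+ library 1 at 0.464, and the overexpression libraries lie between 1.56 and 1.89 on the left.

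Promoter sequence was not used to choose the genes, and some of the nuclear members hold a known motif there. NRF1, the nuclear respiratory factor that drives many of these genes, binds a palindrome made of GCGCA followed directly by its reverse complement TGCGC, which reads the same on both strands. In RefSeq promoters of GRCm38.p6, from 250 bases before to 50 bases after the start, this exact sequence was found in 7 of 74 nuclear members with a promoter in the table (9.46%), against 288 of 26742 genes (1.08%). They were Ndufa11 of complex I, the assembly factors Ndufaf4 and Ndufaf5, Uqcrc1 of complex III, Cox6a1 of complex IV, and Atp5k and Atp5g2 of complex V. The match is a description of the sequence and no evidence of binding in these cells. The background of all genes was not matched for base composition. The promoter of Cox6a1, on the minus strand at chr5:115348909-115349208, is shown with the palindrome in capitals.
Cox6a1: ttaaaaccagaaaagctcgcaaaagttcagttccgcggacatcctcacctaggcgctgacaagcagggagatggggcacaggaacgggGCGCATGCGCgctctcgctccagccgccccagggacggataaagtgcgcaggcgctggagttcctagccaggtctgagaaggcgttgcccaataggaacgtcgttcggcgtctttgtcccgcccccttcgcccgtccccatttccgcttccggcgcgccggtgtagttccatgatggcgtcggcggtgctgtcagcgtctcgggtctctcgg
The 7 genes did not move alike in MRC1+ against CD11c+ TAMs. Cox6a1, Atp5k and Uqcrc1 were at -0.37, -0.33 and -0.18 on the log2 scale with no overlap of libraries, and Ndufaf4 was at 0.17, also with none. Over all tested genes, 19.6% were lower and 18.7% higher without overlap. None of the 7 genes was called in the main fit. Ndufaf5, Ndufa11 and Atp5g2 were at -0.095, -0.076 and 0.35, with overlap.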

How the data were processed

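Per the submitters' processing notes, reads were handled with Bowtie, TopHat 1.2.0, SAMtools 0.1.12a and HTSeq on mm9 (NCBIM37). The authors deposited whole-number read counts for Ensembl genes in each of 12 libraries, not normalized; the sources used here do not give the counting mode or use of strand. The 5 summary entries that name no gene entered neither library sizes nor tests; of these, reads outside all genes took 7.64% to 26.6% of a library. The RNA was fragmented by heat for a TruSeq library, per the labels.

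Gene symbols came from GENCODE M21 on GRCm38 (31819 of 36439 identifiers matched), a build newer than mm9, so gene coordinates are not printed apart from a RefSeq promoter. A second Atp5o identifier and 11 pseudogenes matching by name were not used. The members and gene lists were chosen with earlier results of these data known. Named genes were all mitochondrially encoded genes, all called members, the 3 nuclear members of lowest p per direction and comparison, the Sdh genes, the nuclear member of highest level per kb in each complex, paralogues, and up to 4 genes of lowest p per surrounding list. Values of 1 gene that the rule would name are not reported here. Other members were named after their values were seen. The ribosomal list left out S6 kinases matched by name.

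Each pair of groups was fitted with edgeR 4.0.16 (R 4.3.3; filterByExpr, TMM, quasi-likelihood test), with Benjamini-Hochberg adjustment over all tested genes and calls at 0.05. The SE of a log2 fold change was its size over the square root of F. The fit was tested on simulated counts with known changes. For the sorted and the overexpression pair it recovered 70% and 71% of 2-fold changes and 95% and 93% of 4-fold changes. Of its calls there, 8.84% and 5.75% were false. All members called in the data changed by less than 2-fold. Levels per kb used the principal protein-coding transcript. Shared sequence was the share of its 31-base words present on either strand in a transcript of another, non-overlapping gene. No 2 libraries of a group agreed within sampling noise (chi-square per degree of freedom 10.0 to 36.4). The main fits did not pair libraries, and same-numbered libraries were paired only in the replicate block and in the ratios by library number. Deviations of same-numbered libraries correlated across genes by 0.104, 0.337 and 0.250 (sorted) and 0.147, 0.258 and 0.462 (overexpression), all over 0.1. However, miR-511-3p library 1 correlated at 0.166 with miR-511-3p-mut library 2, above its same-numbered 0.147. The pairing rests on these values, not on a label, and is uncertain for the libraries numbered 1. On the log2(CPM + 1) scale the first sorted pair was at 0.0871. There the first overexpression pair was at 0.171, against 0.157 for miR-511-3p library 1 with miR-511-3p-mut library 2.

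Alternatives were upper-quartile scaling, library size alone, scaling without mitochondrial genes, DESeq2 1.42.0, no filter, all 12 libraries in 1 fit, the replicate block, and leaving out each library.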

Additional observations from a re-analysis of the deposited data

How the results depend on the processing

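In MRC1+ against CD11c+ TAMs the log2 fold changes of mt-Nd5, mt-Nd6, Ndufa6 and Sdhb kept their sign in every alternative run. The number of nuclear members called lower was 1 with upper-quartile scaling, 1 with library size alone and 10 with all 12 libraries in a fit, against 2, and 0 to 8 on leaving out a library. Nuclear members called higher were 2 with library size alone (Ndufa4, Ndufaf2) and 1 in the fit of all 12 (Ndufaf2), against 0. Mitochondrially encoded members called higher were 4 without a filter and 1 with the replicate block, against 2, and 0 to 5 on leaving out a library. mt-Cytb was called with upper-quartile scaling, library size alone, DESeq2, no filter and all 12 libraries. The nuclear median was -0.0200 with library size alone, and -0.21 to -0.057 on leaving out a library. The difference in log2 ratio was 0.50 from mean log2 CPM and 0.56 without the most abundant members, against 0.25. Over all genes, 1636 were called higher with library size alone, which made 59.6% of calls higher ones, against 1080 and 41.6%; leaving out a library gave 390 to 2356 higher and 860 to 2351 lower. In miR-511-3p against miR-511-3p-mut TAMs, DESeq2 and the fit of all 12 each called 1 gene higher and the replicate block 1 lower, against 0, and the nuclear median was 0.011 to 0.051 on leaving out a library. The replicate block changed no other call of a named member than mt-Nd6 and Cox6a1. The causes were not tested. For members whose sequence is mostly shared, among them mt-Co2, Atp5g2, mt-Co1 (63.9%) and mt-Nd4 (62.8%), the counts may not give the level at any depth.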
